A study of Mus musculus with 2 samples.

Results

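Hox genes with their Pbx and Meis cofactors were followed in sorted preparations of mesothelial cells of the mouse liver, in an adult preparation and in a preparation of embryonic day 12.5 (E12.5). The members were all probe sets that the platform annotation assigns to 1 gene symbol of the Hoxa, Hoxb, Hoxc or Hoxd series, of Pbx or of Meis. They came to 63 probe sets of 39 genes, among 18193 genes measured in all. Of these, 33 were Hox genes with 48 probe sets, 3 were Pbx genes with 7, and 3 were Meis genes with 8. Hox and cofactor genes without a probe set of 1 such symbol were not analysed here.

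The adult cells came from livers of C57BL/6 mice aged 8 weeks and were sorted with an antibody to Mesothelin, the surface protein that Msln encodes. The E12.5 cells came from C57BL/6 livers and were sorted with an antibody to PCLP1, the product of Podxl. Each preparation was hybridised to 1 Affymetrix array after amplification of its RNA in 2 cycles, and the labels do not say how many animals went into it. With 1 array per group there is no replicate error and no test, and age cannot be told apart from the antibody used to sort or from the array itself. Signals are linear intensities, and every adult signal given below was divided by 0.680, the ratio of the medians of the arrays, which puts it on the scale of the E12.5 array. Differences are log2 of the adult signal minus log2 of the E12.5 signal, so that a negative value means lower in the adult. A probe set was detected where its call was present, and an absent call means not detected on that array. A gene was read from its brightest detected probe set, and 2-fold was used as the threshold for a difference. In such bulk preparations, fewer cells of a type and less RNA per cell cannot be told apart.

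Hox genes encode homeodomain transcription factors and lie in 4 clusters, in which genes toward the 3' end act in anterior regions of the embryo and genes toward the 5' end in posterior regions and in the limbs. Genes at corresponding places of the clusters carry the same number and form a paralogue group. Pbx and Meis proteins are homeodomain proteins of the TALE class that bind DNA together with Hox proteins, and Meis proteins also bind Pbx and promote its entry into the nucleus. Mesothelium is the epithelium of mesodermal origin that covers the liver and lines the body cavities.

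The preparations were checked against markers first. All 11 mesothelial markers were detected on both arrays, with a summed signal of 81872 in the adult and 36354 at E12.5. Msln itself read 11835 in the adult against 48.5 at E12.5, and Podxl read 1807 in the adult against 6069 at E12.5, which follows the antibodies used. Markers of other cells moved as well. The 10 macrophage and leukocyte markers summed to 22652 in the adult and 722 at E12.5, and the 10 endothelial markers to 16736 in the adult and 2114 at E12.5. Of the 9 endothelial markers detected on both arrays, 7 were higher in the adult and 2 lower. The lower ones were Cdh5, with 109 in the adult and 128 at E12.5, and Tek, with 137 in the adult and 257 at E12.5. Pecam1 was called present on neither array. The 9 hepatoblast markers summed to 2680 in the adult and 29127 at E12.5, the 9 erythroid markers to 241 in the adult and 2797 at E12.5, and the 10 stellate and fibroblast markers to 5293 in the adult and 10204 at E12.5. This last sum joins opposite differences. Of the 5 stellate and fibroblast markers detected on both arrays, 4 were lower in the adult, while Acta2 read 3811 in the adult and 2184 at E12.5. Lrat was present in the adult alone. All 10 macrophage markers were detected in the adult and 5 of them at E12.5, whereas 1 of the 9 erythroid markers was detected in the adult and 8 at E12.5. The ratio of 3' to 5' signal was 6.81 in the adult and 2.07 at E12.5 for Gapdh, and 3.47 in the adult and 1.93 at E12.5 for beta-actin. The part of these differences in the values of the Hox, Pbx and Meis genes was not tested.

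Hox genes of the anterior and middle paralogue groups were detected in these preparations of liver mesothelial cells, and none of the posterior groups was. A present call was found for 12 of the 33 Hox genes in the adult and for 14 at E12.5. Over all genes measured the share with a present call was 62.7% in the adult and 63.4% at E12.5. In paralogue groups 1 to 4, 8 of 10 genes were detected on at least 1 array, all 8 of them on both. In groups 5 to 8, 7 of 9 were detected, 3 on both arrays. In groups 9 to 13, 0 of 14 were detected on either array, and over all genes 29.6% were detected on neither. As the grid of detection calls shows, no cluster had a detected gene beyond paralogue group 8.

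**Figure D1:**
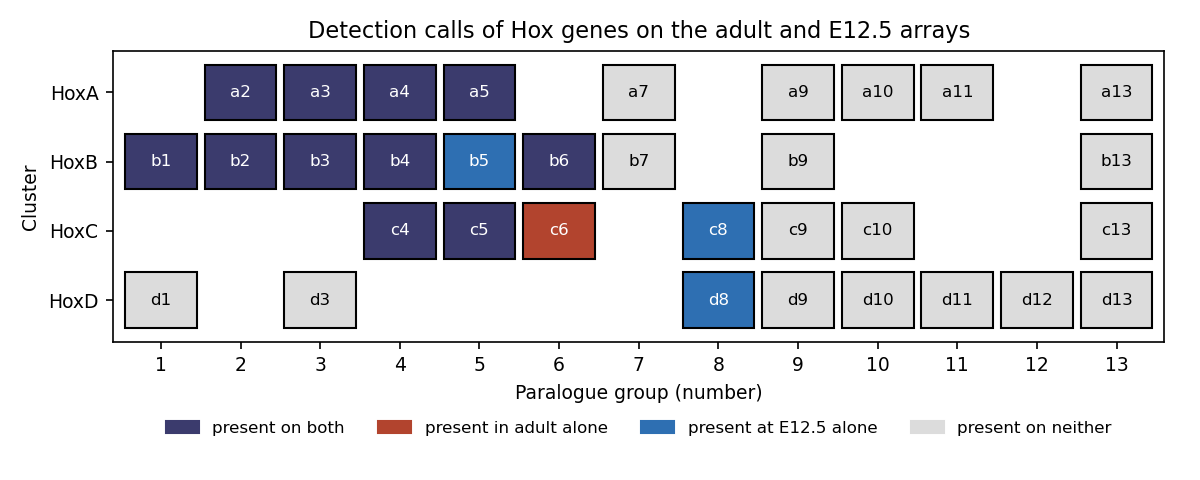
Detection calls of the 33 measured Hox genes, placed by cluster (rows, HoxA to HoxD) and paralogue group (columns, numbered from the 3' to the 5' end of a cluster). Colours give the arrays with a present call, and empty places hold no gene measured here. All 15 detected genes lie in groups 1 to 8, and the 14 genes of groups 9 to 13 are called present on neither array.

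The clusters were not represented alike. HoxB had 6 of 9 genes detected, namely Hoxb1 to Hoxb6, and HoxA had 4 of 9, namely Hoxa2 to Hoxa5. HoxC had 4 of 7 detected, which were Hoxc4, Hoxc5, Hoxc6 and Hoxc8. HoxD had 1 of 8, which was Hoxd8. Hoxd1 and Hoxd3, the anterior members of HoxD, were detected on neither array, nor were Hoxa7 and Hoxb7. Among the 14 genes of groups 9 to 13, which pattern the lumbar and sacral axis, the limbs and the genital tract, signals ran from 1.18 to 29.9 in the adult and from 0.447 to 52.8 at E12.5. The highest of these E12.5 signals was that of Hoxa9, which reached 52.8 with an absent call, while its adult signal was 8.53. No direction was read from these genes, since neither array detected them.

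All 11 Hox genes detected on both arrays had a lower signal in the adult than at E12.5, as did 64.2% of all genes detected on both. Of these, 7 were at least 2-fold lower in the adult, where 27.1% of all genes detected on both arrays were, and 0 were at least 2-fold higher, where 13.2% of all genes were. Their median difference was -1.19, against -0.37 over the 10154 genes detected on both arrays. The median of the Hox genes thus lay 0.82 log2 units below that of all genes, and this distance was -0.84 after quantile normalization, -0.86 with probe sets averaged and -0.69 with a pseudocount of 16. It cannot move without scaling or when centred, since both shift all genes alike. The direction of single genes near 0 depended on the scaling. Hoxa5 turned to 0.35 under quantile normalization and to 0.33 with the detected genes centred on 0, and Hoxb6 turned to 0.16 when centred. When centred, Hoxa2, Hoxa3 and Hoxc4 also lay within 2-fold, and the 4 genes past it were Hoxa4, Hoxb1, Hoxb3 and Hoxc5. Among all 2-fold calls, the share lower in the adult was 67.1% as scaled here, 85.4% without scaling, 53.6% after quantile normalization and 45.6% when centred.

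The gene with the widest difference among the Hox genes was Hoxb1, which acts in the hindbrain in the identity of facial motor neurons. Its signal was 21.4 in the adult and 187 at E12.5, both called present, which is 8.76-fold lower in the adult (log2 difference -3.13). The adult value lies low on its array, and with a floor of 32 on both arrays the difference was -2.55. Hoxa2, which patterns the hindbrain and the second branchial arch, read 68.4 in the adult and 157 at E12.5 and was 2.29-fold lower in the adult. Its paralogue Hoxb2, also a hindbrain gene, read 333 in the adult and 528 at E12.5, a difference of -0.67 within 2-fold. Both genes of paralogue group 2 were therefore detected at both stages, with Hoxa2 alone past the threshold.

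Paralogue group 3 serves in the thymus, the parathyroid and the pharyngeal arches. Hoxb3 was lower in the adult on each of its 2 probe sets, which read 210 and 79.1 in the adult and 563 and 170 at E12.5. The brighter of them was 2.68-fold lower in the adult. Hoxa3 was less clear, because its 4 probe sets did not move together. Its brightest read 66.2 in the adult and 134 at E12.5, which is 2.03-fold lower and just past the threshold. Its other detected probe sets read 83.3 and 36.6 in the adult and 97.1 and 33.3 at E12.5, with differences of -0.22 and 0.13. With the probe sets averaged, Hoxa3 differed by -0.37, so its place among the 7 genes rests on 1 probe set.

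All 3 genes of paralogue group 4, which pattern the cervical vertebrae, were detected on both arrays. Hoxa4 read 95.2 in the adult and 372 at E12.5, 3.91-fold lower in the adult, and its other probe set read 23.6 in the adult and 72.5 at E12.5. Hoxc4 read 265 in the adult and 614 at E12.5 and was 2.32-fold lower in the adult. Hoxb4, best known for the expansion of haematopoietic stem cells, read 180 in the adult and 241 at E12.5, a difference of -0.42 within 2-fold. A fainter probe set of Hoxb4 was detected at E12.5 alone, with 24.1 in the adult and 58.7 at E12.5.

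Among genes detected on both arrays, paralogue group 5 held the widest contrast between paralogues. Hoxa5, which is needed for the lung and patterns the lower neck, read 870 in the adult and 897 at E12.5, a difference of -0.04. Hoxc5, which acts with Hoxa5 in motor neurons of the phrenic nerve, read 130 in the adult and 837 at E12.5 and was 6.44-fold lower in the adult. Hoxb5 was detected at E12.5 alone, with 35.2 in the adult and 124 at E12.5, a signal 3.52-fold lower in the adult. Hoxa5 thus had nearly the same signal on both arrays, and its other probe set read 169 in the adult and 240 at E12.5. The other 2 probe sets of Hoxc5 had no present call on either array.

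Of paralogue groups 6 to 8, Hoxb6, known from lateral plate mesoderm and limb bud, read 72.8 in the adult and 84.5 at E12.5, a difference of -0.21. Hoxc6, which acts in limb-level motor neurons, was the only Hox gene with a present call in the adult alone, where 9.84% of all detected genes had one. Its signals of 49.3 in the adult and 46.0 at E12.5 were nearly equal in spite of the different calls, and its other 2 probe sets were absent on both arrays. Hoxb5, Hoxc8 and Hoxd8 were present at E12.5 alone, as were 10.8% of all detected genes. Hoxc8, which patterns the thoracic skeleton and forelimb motor neurons, read 16.2 in the adult and 41.7 at E12.5, a signal 2.58-fold lower in the adult. Hoxd8, the one gene of HoxD with a present call, read 11.7 in the adult and 60.1 at E12.5, a signal 5.12-fold lower in the adult. Its other probe set was absent on both arrays, with 18.3 in the adult and 64.0 at E12.5. Hoxc8 and Hoxd8 are dim, and with a floor of 32 Hoxc8 differed by -0.38 and Hoxd8 by -0.91, within 2-fold.

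**Figure D2:**
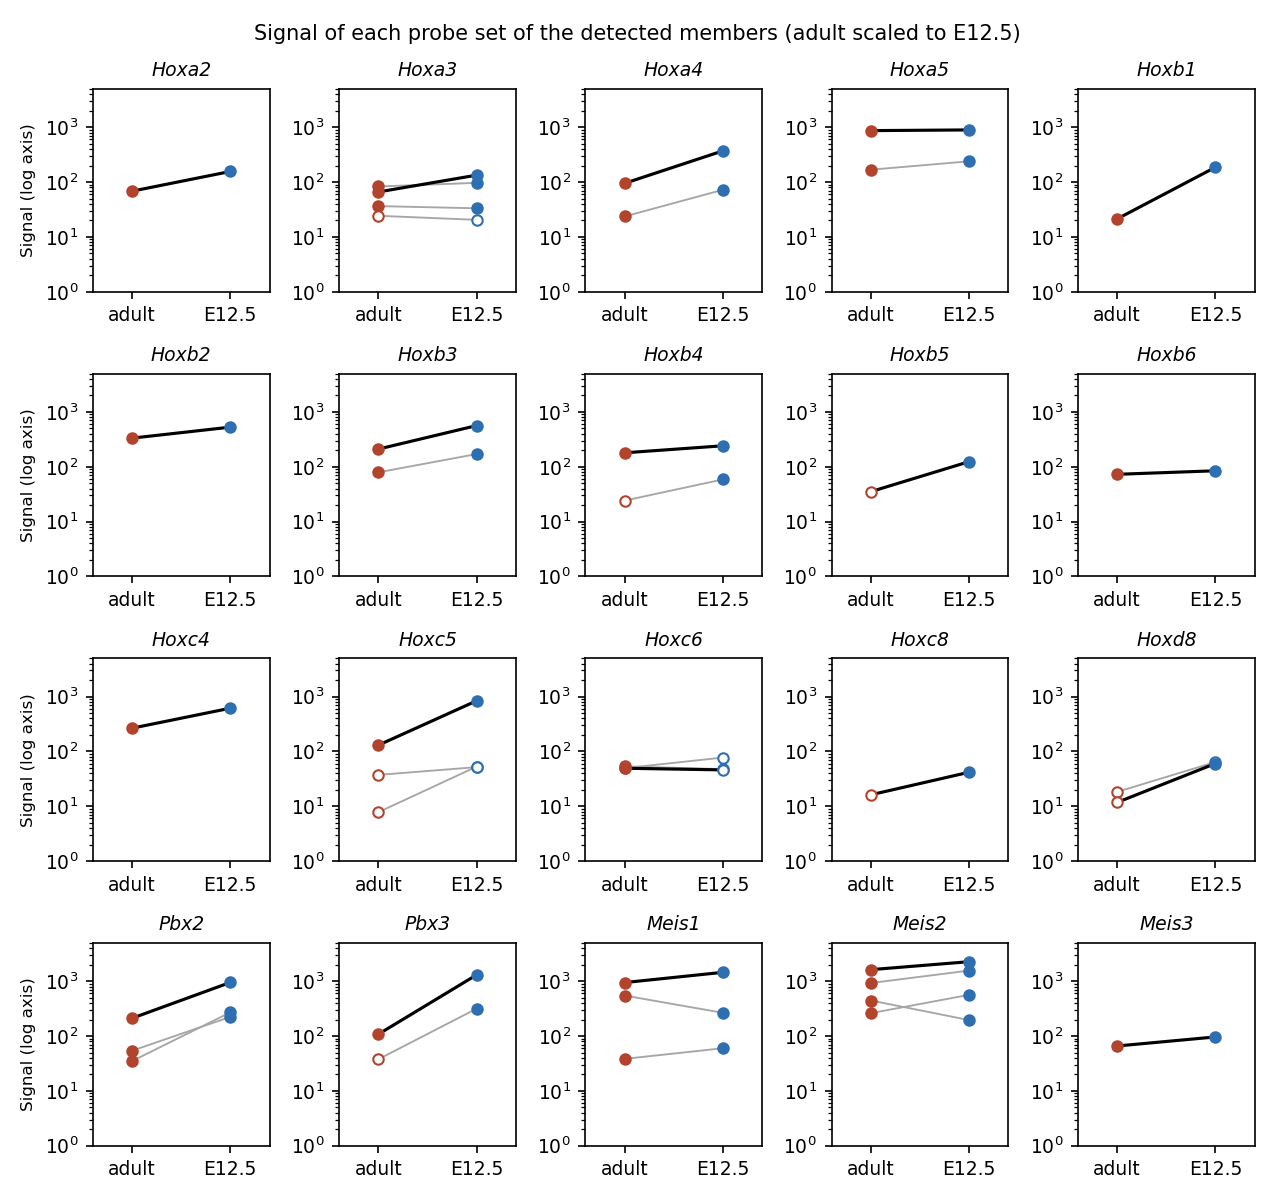
Signal of every probe set of the 20 detected members (vertical log axis, linear intensity units, adult divided by 0.680) on the adult array (left) and the E12.5 array (right). Filled points are present calls and open points other calls; black lines mark the probe set read for the gene, grey lines the others. Pbx3, Hoxb1, Hoxc5 and Pbx2 are far lower in the adult than at E12.5, Hoxa5 is level, and Meis1 and Meis2 each have 1 probe set that runs the other way. Hoxd8 is lower in the adult as well, but dim and without a present call there.

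Promoter sequence was set beside these differences for 4 genes, chosen to hold the widest difference among the Hox genes (Hoxb1), its 2 companions with a cofactor motif (Hoxa2 and Hoxa3) and the gene with the difference nearest to 0 (Hoxa5). Each line gives the 250 bases before the annotated start, read 5′ to 3′ on the gene's strand from RefSeq, build GRCm38.p6. Capitals mark TGATNNAT, a motif of Pbx with Hox, and TGACAG, a motif of Meis, searched on both strands. Hoxb1 lies on the plus strand at chr11:96365508-96365757, and the others on the minus strand, Hoxa2 at chr6:52164832-52165081, Hoxa3 at chr6:52213068-52213317 and Hoxa5 at chr6:52204588-52204837.
Hoxb1: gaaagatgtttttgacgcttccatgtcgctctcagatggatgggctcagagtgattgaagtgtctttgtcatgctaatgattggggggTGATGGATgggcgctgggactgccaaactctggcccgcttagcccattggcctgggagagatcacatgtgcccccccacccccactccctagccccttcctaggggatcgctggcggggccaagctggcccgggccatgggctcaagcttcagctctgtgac
Hoxa2: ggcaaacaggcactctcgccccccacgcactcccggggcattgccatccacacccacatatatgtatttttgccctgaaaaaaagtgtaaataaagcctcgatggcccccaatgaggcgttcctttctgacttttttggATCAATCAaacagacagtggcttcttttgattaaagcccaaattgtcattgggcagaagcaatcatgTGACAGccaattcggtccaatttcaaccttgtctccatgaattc
Hoxa3: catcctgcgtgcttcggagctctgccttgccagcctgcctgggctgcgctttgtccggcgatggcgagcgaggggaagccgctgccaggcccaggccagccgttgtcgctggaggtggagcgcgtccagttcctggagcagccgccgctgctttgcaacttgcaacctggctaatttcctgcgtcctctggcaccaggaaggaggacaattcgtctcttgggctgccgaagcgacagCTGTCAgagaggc
Hoxa5: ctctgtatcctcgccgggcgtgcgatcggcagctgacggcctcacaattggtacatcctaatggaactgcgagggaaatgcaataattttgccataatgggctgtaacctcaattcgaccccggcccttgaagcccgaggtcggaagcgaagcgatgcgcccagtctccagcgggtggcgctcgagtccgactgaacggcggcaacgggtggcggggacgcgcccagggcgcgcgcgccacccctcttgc

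Hoxb1 is known for an autoregulatory element upstream of the gene, through which Hoxb1 and Pbx proteins keep it transcribed in the hindbrain. In the window printed, TGATGGAT stands 162 to 155 bases before the start. Hoxa2 holds ATCAATCA, the motif on the other strand, 111 to 104 bases before its start, and TGACAG 44 to 39 bases before it. Hoxa3 holds CTGTCA, the Meis motif on the other strand, 13 to 8 bases before its start. Neither motif stands in the window of Hoxa5, which says only that these letters are not there. The windows of Hoxc4, Hoxd8 and Pbx2 hold neither motif as well, and the signals of these genes were past 2-fold lower in the adult. Since the printed genes were chosen partly by motif, no relation between motif and difference can be read from them. Over the 26 promoters listed for 24 of the 39 genes, 3 held TGATNNAT and 2 held TGACAG, against 7.68% and 15.9% of the 32851 promoters in the table. The remaining promoter with TGATNNAT belongs to Hoxd11, which neither array detected. The member promoters had a median GC content of 59.2%, against 52.4% over the whole table, and a match is a description of letters and not of binding.

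The Pbx genes were much lower in the adult, while the Meis genes differed by less than 2-fold on their brightest probe sets. Pbx3, whose loss in mice disturbs the control of breathing, read 108 in the adult and 1304 at E12.5, 12.1-fold lower in the adult (log2 difference -3.60). Its second probe set was detected at E12.5 alone, with 37.6 in the adult and 316 at E12.5. Pbx2, a widely expressed member, read 211, 53.8 and 34.9 on its 3 probe sets in the adult and 949, 223 and 270 on the same probe sets at E12.5. All 3 were lower in the adult, by 4.50-fold, 4.15-fold and 7.73-fold. Pbx4, known mainly from the testis, was detected on neither array. Both detected Pbx genes kept their 2-fold call under each scaling, with Pbx3 between -4.15 and -3.22 and Pbx2 between -2.73 and -1.80.

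Meis1, a regulator of haematopoietic stem cells that cooperates with Hox proteins in leukaemia, read 944 in the adult and 1452 at E12.5, a difference of -0.62. Meis2, which is needed in cranial and cardiac neural crest, read 1624 in the adult and 2269 at E12.5, a difference of -0.48. Meis3, known from the hindbrain and the enteric nervous system, read 65.8 in the adult and 96.2 at E12.5, a difference of -0.55. All 3 Meis genes were thus detected at both stages and lay within 2-fold as scaled here. Without scaling, Meis1 at -1.18, Meis2 at -1.04 and Meis3 at -1.11 were past 2-fold lower in the adult. All 8 Meis probe sets were present on both arrays, but they did not share a direction. A probe set of Meis1 read 547 in the adult and 265 at E12.5, with a difference of 1.05, and a probe set of Meis2 read 444 in the adult and 195 at E12.5, with a difference of 1.19. Another of Meis2 read 261 in the adult and 564 at E12.5, with a difference of -1.11. When probe sets marked as matching several transcripts were left out, these upward probe sets were the ones read, and Meis1 and Meis2 turned to higher in the adult. Pbx3 and Meis3, which have no other probe set, then dropped out, and the median over the 3 genes left (Pbx2, Meis1 and Meis2) was 1.05, against -0.62 over 5 genes as reported. With Pbx3 and Meis3 kept, the median over 5 genes was -0.55, an alternative chosen after seeing the data. No direction is therefore given for Meis1 and Meis2 as genes, and which transcripts their probe sets detect was not tested.

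**Figure D3:**
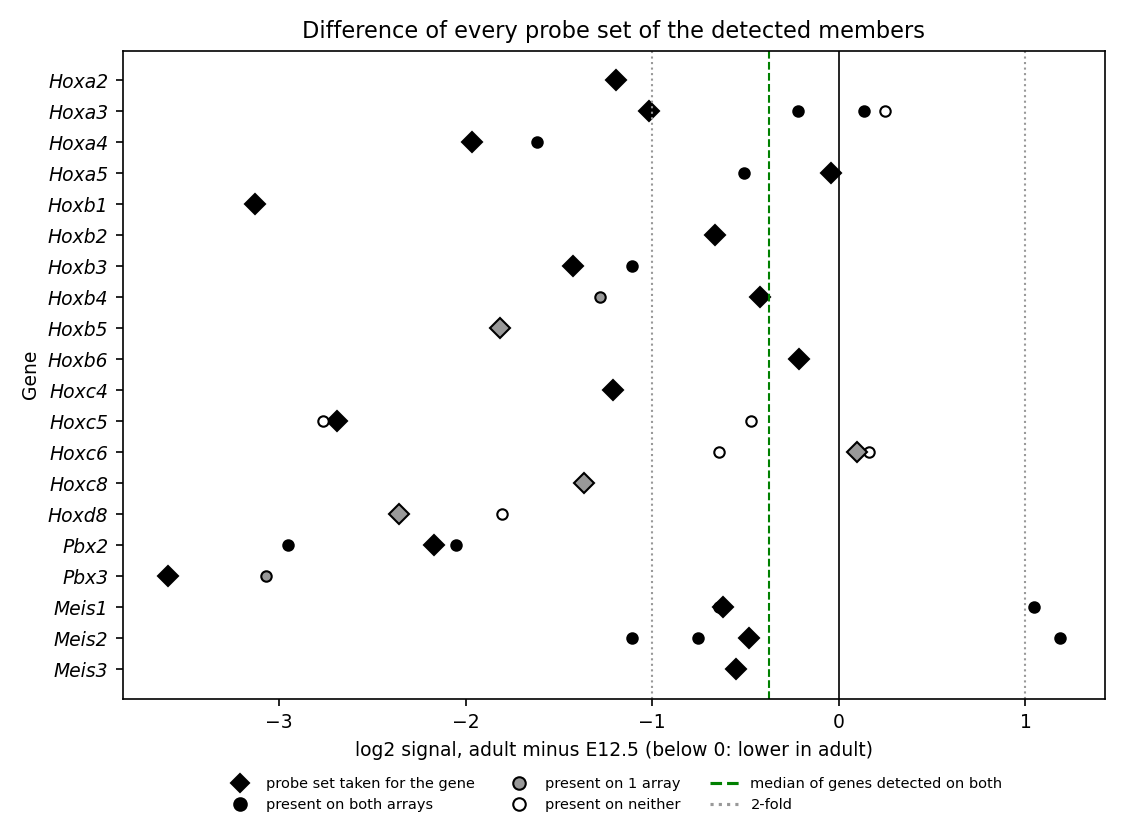
Log2 difference, adult minus E12.5, of every probe set of the 20 detected members (horizontal axis; genes run down the page). Diamonds mark the probe set read for the gene and circles the others; black is present on both arrays, grey on 1 and white on neither; the dashed line is the median of all genes detected on both arrays (-0.37) and dotted lines are 2-fold. The probe sets of Pbx2, Pbx3, Hoxa4 and Hoxb3 lie together on the left, and those of Meis1, Meis2 and Hoxa3 spread across 0.

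Agreement between probe sets of a gene gives the one internal measure of spread in these data. Over 4279 genes with several probe sets present on both arrays, the standard deviation of the difference between probe sets of a gene was 0.62 on the log2 scale. The differences of Hoxb1, Hoxc5, Hoxa4, Pbx2 and Pbx3 were more than 3 times that size, and those of Hoxa5, Hoxb4, Hoxb6, Meis2 and Meis3 were smaller than it. These are comparisons of size and not a test. Hoxb1, Hoxc5, Pbx3, Hoxb4, Hoxb6 and Meis3 each have only 1 probe set present on both arrays, so they hold no such spread of their own. The spread of 0.62 lies within the arrays and holds nothing of the spread between animals or preparations. Of the 28 member probe sets present on both arrays, 25 were lower in the adult and 3 were higher, where 64.1% of the 17103 probe sets with 1 symbol present on both arrays were lower. Past 2-fold, 14 were lower and 2 were higher in the adult, against 26.7% lower and 12.8% higher of those 17103, and the 2 belonged to Meis1 and Meis2.

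The remaining TALE homeobox genes, the Pknox, Tgif and Irx genes and Mkx, were lower in the adult where they were past the threshold. Of 11 measured, 6 were detected, 4 of them on both arrays, and of these 3 were at least 2-fold lower in the adult and 0 higher. Tgif2, a repressor in transforming growth factor beta signalling, read 394 in the adult and 2567 at E12.5. Irx5, a patterning gene of the Iroquois family, read 20.7 in the adult and 52.5 at E12.5. Pknox2, a relative of Meis, was present at E12.5 alone, with 37.4 in the adult and 172 at E12.5, and so was Tgif1, with 19.1 in the adult and 41.8 at E12.5. The median of the 4 genes detected on both arrays was -1.17, against -0.37 over all genes.

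Activators of the Hox clusters, here the Cdx proteins, retinoic acid receptors, the Kmt2a complex and hindbrain regulators, were detected for 11 of 16 genes measured. The 5 detected on neither array were Cdx1, Cdx2, Cdx4, Rara and Gdf11. Of the 8 on both arrays, 4 were at least 2-fold lower in the adult and 0 higher, with a median of -1.07. Egr2, a zinc finger protein that activates Hoxa2 and Hoxb2 in the hindbrain, read 135 in the adult and 1391 at E12.5. Rarb, a retinoic acid receptor that is also a target of retinoic acid, read 81.1 in the adult and 453 at E12.5. Rxrg, another retinoid receptor, was present at E12.5 alone, with 16.5 in the adult and 125 at E12.5. The retinoid receptors did not all run this way, as others show that were named after their values were seen. Rarg, present at E12.5 alone, read 605 in the adult and 275 at E12.5. Rxrb read 1494 in the adult and 1231 at E12.5, and Rxra read 390 in the adult and 407 at E12.5. Psip1, a chromatin reader that tethers Kmt2a, read 542 in the adult and 1336 at E12.5.

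Polycomb genes, whose products hold Hox genes silent outside their domains, were all detected, 15 of 15 measured. Of the 13 on both arrays, 5 were at least 2-fold lower in the adult and 2 higher, with a median of -0.57. Ezh2, the methyltransferase of lysine 27 on histone H3, read 126 in the adult and 2089 at E12.5. The 2 higher genes were Ezh1, the other methyltransferase of that residue, with 933 in the adult and 226 at E12.5, and Phc3, with 614 in the adult and 280 at E12.5, both named after their values were seen. Cbx2 read 140 in the adult and 1122 at E12.5. Cbx7 ran the other way and had no present call at E12.5. Its signal was 306 in the adult, 9.57-fold higher than its signal at E12.5. Cbx2 and Cbx7 are alternative chromodomain subunits that read the mark Ezh2 makes. Rnf2, the ubiquitin ligase of the complex, read 519 in the adult and 2172 at E12.5.

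Genes that flank the Hox clusters gave a comparison from the same chromosomal neighbourhoods. Of 18 measured, 14 were detected, 13 on both arrays, of which 5 were at least 2-fold lower in the adult and 1 higher, with a median of -0.46. Skap2, near HoxA, read 3262 in the adult and 1070 at E12.5, opposite in direction to Hoxa2 and Hoxa4. Atp5g1, near HoxB, read 516 in the adult and 1465 at E12.5, and Cbx5, near HoxC, read 1012 in the adult and 2322 at E12.5. Mtx2, near HoxD, read 287 in the adult and 602 at E12.5. No test of the Hox genes against these lists was made, and the counts stand as descriptions beside the 27.1% lower and 13.2% higher of all genes.

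Lists of markers for body wall and limb, urogenital and neural cells were read as well. A listed gene that is detected need not come from such cells. Of 9 body wall and limb markers 1 was detected, Tbx4, which read 86.9 in the adult and 32.7 at E12.5, and the list summed to 209 in the adult and 207 at E12.5. The other 8 were called present on neither array, so the sums are mostly undetected signal and do not compare the arrays. Of 9 urogenital markers 6 were detected, with a sum of 4035 in the adult and 5887 at E12.5 that joins opposite differences. Osr1 read 1998 in the adult and 63.7 at E12.5, whereas Gata4 read 271 in the adult and 2427 at E12.5, and Six2 was present at E12.5 alone, with 22.7 in the adult and 176 at E12.5. Gata6 read 1659 in the adult and 3143 at E12.5, within 2-fold. Lhx1, Osr2 and Nr5a1 were called present on neither array. Of 7 neural and neural crest markers 3 were detected, with a sum of 511 in the adult and 1001 at E12.5. Most of both sums was Isl1, with 378 in the adult and 863 at E12.5. Phox2a was present in the adult alone and Elavl4 at E12.5 alone, both dim, and the other 4 were called present on neither array. The share of any of these cells in the Hox signals was not tested.

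**Figure D4:**
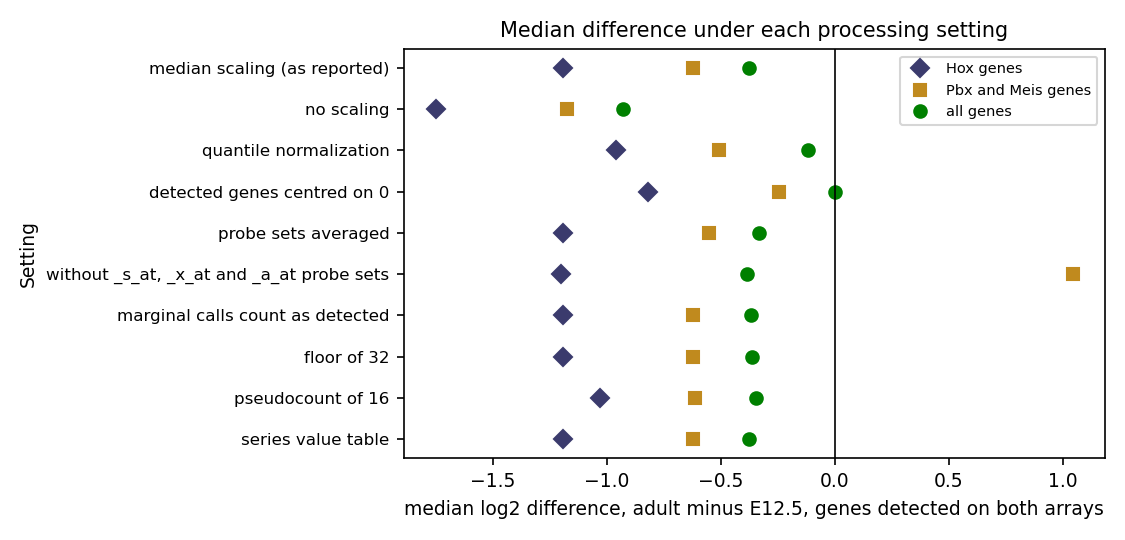
Median log2 difference, adult minus E12.5 (horizontal axis), of the Hox genes, of the Pbx and Meis genes and of all genes detected on both arrays, under the scaling reported here and the 9 alternatives (rows). The Hox median lies left of the median of all genes in every row, between -1.75 and -0.82. The Pbx and Meis median is 1.05 in the row without probe sets marked as matching several transcripts, where 3 genes are left of 5.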

How the data were processed

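RNA of 2 preparations of sorted liver mesothelial cells was measured on 1 Affymetrix array each. Per the file headers, the authors deposited a raw signal, a linear intensity, and a detection call (present, marginal or absent) for each of 45101 probe sets, and a ratio of the adult to the E12.5 array. The submitters' processing notes name Affymetrix Expression Console, with no settings stated. On the values, the deposited ratio equals the adult intensity over 0.680 times the E12.5 intensity, except for 78 probe sets where it stands at a floor of 0.01, and the series value table holds the same intensities. A further 3 columns of per-sample values (the E12.5 normalized value and both control columns) were not used.

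Symbols came from the platform annotation: of the probe sets other than 64 controls, 34945 carried 1 symbol, of which 34741 were matched in RefSeq, 932 carried several and 9160 none. The adult intensities were divided by 0.680 and log2 differences taken, with no floor or pseudocount. A gene was read from its brightest probe set (by mean log2 signal) that was present on 1 array or more. For a gene present on 1 array alone, its signal there was divided by its signal on the other array. Where the lowest present signal of that array (5.84 in the adult, 4.57 at E12.5) was higher, this was the divisor. The fold so obtained is not a lower limit of the difference. No test was possible with 1 array per group, whose number limits the precision. All members are accounted for. Of each other list, up to 4 detected genes with the widest difference were named, of the marker lists fewer. Polycomb, activator and TALE genes named beyond these, after their values were seen, are said to be so. The members and the 14 lists were chosen with earlier results of these data known. The scaling and the differences of probe sets were tested on simulated arrays. The reading of genes and the 2-fold calls were not tested in this way. Promoter sequences are RefSeq, build GRCm38.p6. Raw medians were 29.9 in the adult and 44.0 at E12.5, and 52.2% of probe sets were present in the adult and 51.9% at E12.5. Python 3.11.15, numpy 2.4.6, pandas 2.3.3 and matplotlib 3.10.9 were used.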

Additional observations from a re-analysis of the deposited data

How the results depend on the processing

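No paired analysis was possible because each group has 1 array, and for the same reason no replicate could be left out. Under the 9 alternatives, the median of the Hox genes stayed below 0, between -1.75 and -0.82, and 0 Hox genes were at least 2-fold higher in the adult. The number at least 2-fold lower was 7 as reported, 8 without scaling, 5 after quantile normalization and 4 with detected genes centred on 0. The share over all genes detected on both arrays was 27.1%, 47.0%, 19.6% and 16.3% in that order. The number of Hox genes was 6 with probe sets averaged, with a pseudocount of 16, or without the _s_at, _x_at and _a_at probe sets. There the share over all genes was 25.3%, 24.8% and 27.4% in that order. Under the other alternatives the number was 7. Without the _s_at, _x_at and _a_at probe sets, which can match several transcripts, Meis1 was 1.05 and Meis2 1.19, because other probe sets were then read. Pbx3, Meis3 and Hoxb6 have no others and dropped out, and the Pbx and Meis median was 1.05 over the 3 genes left; with Pbx3 and Meis3 kept, chosen after seeing the data, it was -0.55. Of 177 values of the 20 detected members under alternatives, 159 kept their direction or stayed within 2-fold, 12 dropped within 2-fold, 4 passed it (Hoxb2, Meis1, Meis2 and Meis3, without scaling) and 2 reversed. Hoxa3 dropped under 5 alternatives. Over all genes, 2748 were 2-fold lower and 1345 higher as reported, 4770 and 814 without scaling, and 1658 and 1980 when centred. Stage, antibody, array and the cell makeup of each sort limit every comparison, and dim signals such as those of Hoxc8 and Hoxd8 depend on how low values are treated.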

Other observations

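Antisense transcripts of the Hox clusters had 3 genes measured. Hoxb5os, annotated antisense to the Hoxb5 locus, read 161 with a present call in the adult and 55.1 with an absent call at E12.5, a signal 2.93-fold higher in the adult. Hoxb5 itself was present at E12.5 alone, with 35.2 in the adult and 124 at E12.5, so the pair had opposite calls. A probe set of Hoxd3os1 read 8.62 in the adult and 30.3, called present, at E12.5, and Hoxa11os was detected on neither array. The relation between these values was not tested.

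A further 3 probe sets carry several Hox symbols and were read for no gene. Of these, 1 shared by Hoxb8 and Hoxb7 read 10.1 with an absent call in the adult and 27.7 with a present call at E12.5. Both probe sets shared by Hoxd4 and Hoxd3 were absent on both arrays.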
